A study of Mus musculus with 60 samples.

Results

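Organoids grown from mouse duodenum and labelled WT-cKO were compared after 24 h in 1 uM 4-hydroxytamoxifen (4-OHT) and after 24 h in DMSO. Every gene with a value in the authors' deposited comparison of these 2 groups was taken, which gave 24905 genes of the 41018 gene rows, and measured values played no part in the choice. The genes were then sorted into lists for the intestinal epithelium, for cell responses, for male germ cells, for other cells of the gonads and for other tissues, because a duodenal epithelium holds no germ cells.

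The 4-OHT group and the DMSO group held 3 libraries each, labelled replicate 1 to 3, out of 60 samples in 20 groups. Both groups carry the genotype WT cKO, came from organoids in Matrigel and IntestiCult medium, and differ by label only in 4-OHT against DMSO. The series uses the same drug and dose on CDK2-cKO organoids, so that WT-cKO organoids are its wild-type counterpart. The labels give neither a Cre driver nor whether WT-cKO organoids carry a Cre, neither age nor sex of the mice, and do not say whether replicates came from separate mice or cultures, so the spread that a p-value measures may be technical. RNA was read by 3′ mRNA sequencing, which counts tags near the ends of polyadenylated transcripts. Values per sample and depths were not analysed here, so each gene is given by the log2 fold change of 4-OHT over DMSO in the authors' deposited table, with a standard error (SE) implied by its p-value, and no level of any gene, intestinal or other, can be stated.

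4-OHT is the active metabolite of tamoxifen. It binds the estrogen receptor, and in mouse genetics it is used to release a Cre recombinase fused to a mutant receptor into the nucleus, where it cuts out a gene flanked by loxP sites. Intestinal organoids hold the cells of the epithelium alone: stem and Paneth cells, goblet, enteroendocrine and tuft cells, and absorptive enterocytes. Male germ cells are a separate lineage. Spermatogonia divide by mitosis and give rise to spermatocytes, which pass through meiosis, and the haploid spermatids that follow form an acrosome, exchange histones first for transition proteins and then for protamines, and build the flagellum of the sperm.

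By the authors' deposited table, 16 genes rose in 4-OHT organoids over DMSO organoids and none fell, at an FDR p under 0.05. The 16 are 0.0642% of the 24905 genes. RNA came from whole cultures, in which more cells of a type and more RNA per cell cannot be told apart. Of these 16 genes 14 have a symbol and 2 are predicted genes, and the 14 are led by genes of spermatids: Ccdc136, Prm1, Tnp1, Smcp and Oaz3. At an unadjusted p under 0.05, 644 genes were higher in 4-OHT organoids, 2.59% of those with a value, and 97 were lower, 0.389%. Together these were 741 genes, fewer than the 1245 that uniform p-values would give. The germ cell lists hold 172 genes with a value, and 82 of them were among the 644 while none was among the 97. The intestinal lists hold 247 genes with a value, of which none was among the 644 and 1 was among the 97. The median log2 fold change was 3.67 over the germ cell lists, -0.06 over the intestinal lists and -0.03 over all genes.

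**Figure D1:**
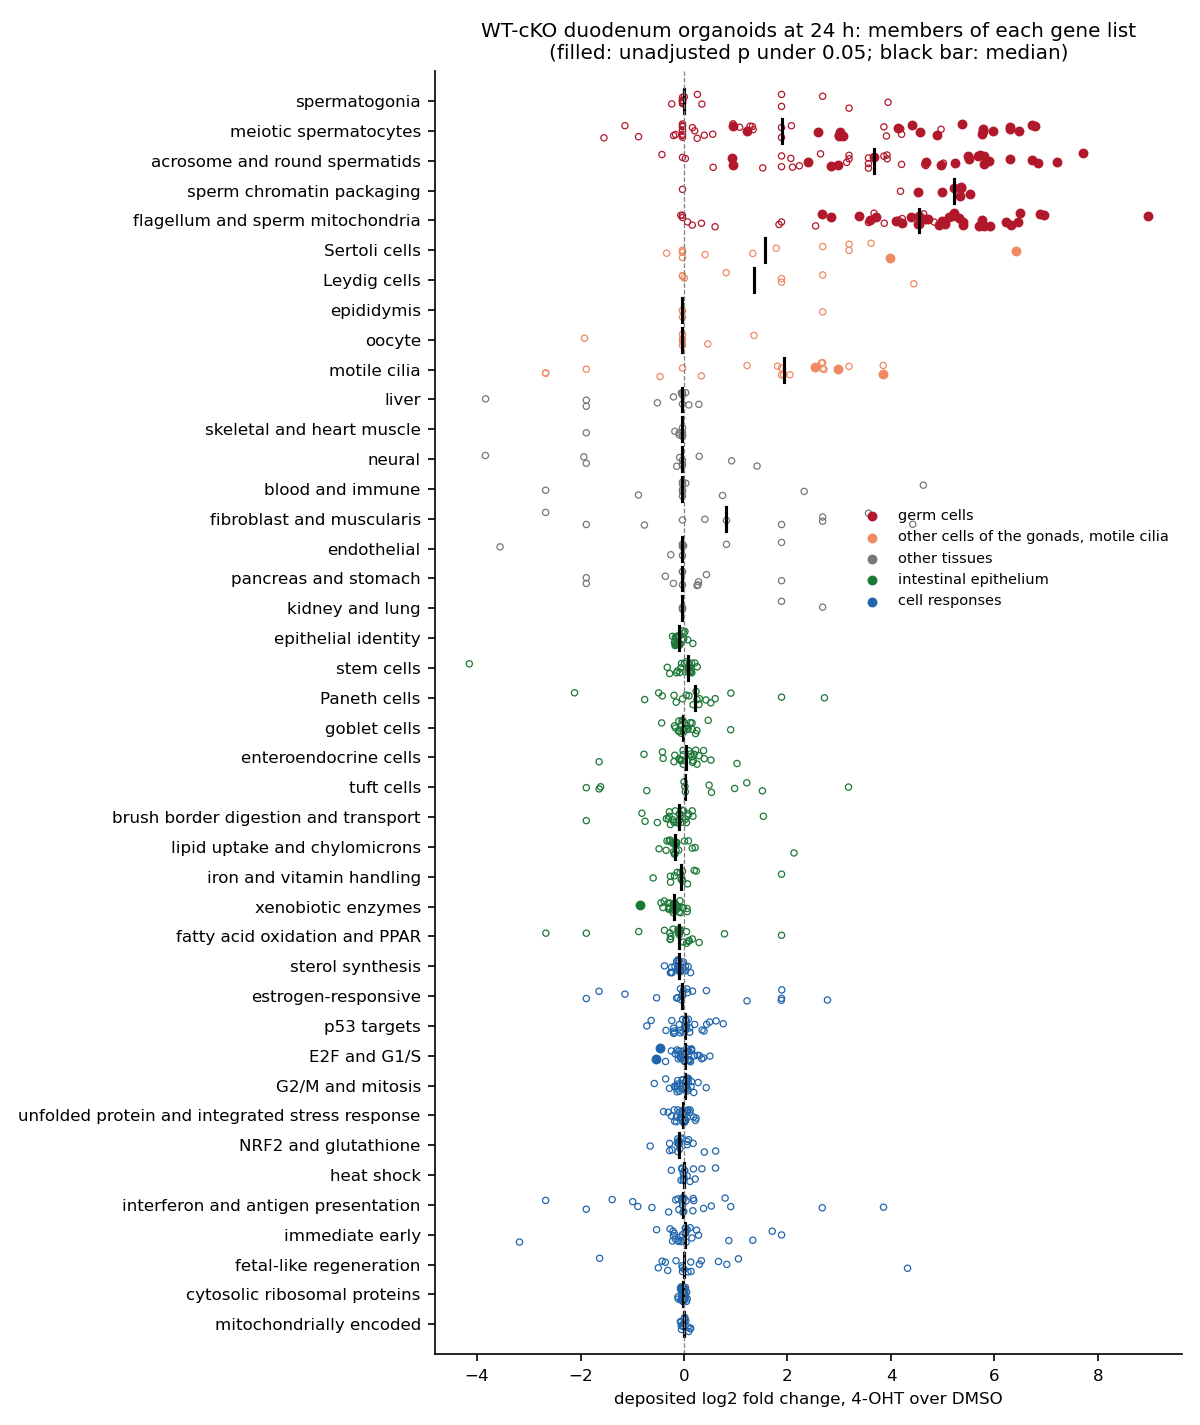
Each circle is 1 gene of the list named on the left, placed by its log2 fold change of 4-OHT over DMSO in WT-cKO organoids at 24 h from the authors' deposited table; filled circles have an unadjusted p under 0.05 and black bars are list medians. The spermatid lists have medians of 3.67 to 5.22, while the lists of the intestinal epithelium have medians between -0.19 and 0.20.

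The genes that pack sperm chromatin had the highest median of any list. Of 9 genes with a value, 8 were above 0, with a median of 5.22. Of the 9, 3 rose at an FDR p under 0.05, where 0.0642% of all genes did. A total of 7 were higher at an unadjusted p under 0.05, where 2.59% of all genes were. Tnp1, the first of the transition proteins that take the place of histones, had a log2 fold change of 5.53 (SE 1.09, FDR p = 0.00329) in the authors' deposited table, a 46.2-fold rise. Prm1, a protamine that compacts the DNA of the sperm head, had a log2 fold change of 5.36 (SE 1.05, FDR p = 0.00329) by the authors' deposited table, or 41.1-fold. Tnp2, the second transition protein, had the same log2 fold change of 5.36 with a larger error (SE 1.25, FDR p = 0.0314) by the authors' deposited table. The 95% interval of Tnp1 ran from 3.39 to 7.67, so the size of the rise is known only within wide bounds. A further 4 genes did not pass the FDR: the authors' deposited table gave log2 fold changes of 5.34 for Prm2 (SE 1.80), 4.98 for Prm3 (SE 1.54), 4.51 for the linker histone Hils1 (SE 1.32) and 5.22 for the linker histone H1fnt (SE 1.68). Prm1, Prm2, Prm3 and Tnp2 lie side by side on chromosome 16 between positions 10787936 and 10805839 of GRCm38 in GENCODE M21. Tnp1 is on chromosome 1, from 73015074 to 73015909. All of these genes are on the minus strand and coding.

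The 250 bases before the start of Tnp1, Prm1 and Tnp2 are shown because these 3 genes rose together and because spermatid genes are known for a variant of the cyclic AMP response element in this stretch, bound in the mouse by the activator CREM. They are from RefSeq on GRCm38.p6, minus strand, 5′ to 3′; the build behind the authors' table is not given in the sources used here. Starts are those of RefSeq: the GENCODE M21 model of Prm1 extends upstream to 10805839, so that the stretch shown lies inside that model. Capitals mark TGACNTCA or its reverse complement TGANGTCA, where N is any base.
Tnp1, chr1:73015900-73016149: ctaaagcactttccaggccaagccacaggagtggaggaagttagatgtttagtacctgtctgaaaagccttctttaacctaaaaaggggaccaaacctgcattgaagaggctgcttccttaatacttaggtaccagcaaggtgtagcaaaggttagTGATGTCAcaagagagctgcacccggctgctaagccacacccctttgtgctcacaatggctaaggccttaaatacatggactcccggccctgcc
Prm1, chr16:10796824-10797073: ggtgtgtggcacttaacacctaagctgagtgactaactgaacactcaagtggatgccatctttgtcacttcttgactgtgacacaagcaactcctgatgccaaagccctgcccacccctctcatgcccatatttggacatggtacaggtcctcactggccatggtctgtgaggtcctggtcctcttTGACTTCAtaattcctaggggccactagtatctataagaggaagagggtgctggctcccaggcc
Tnp2, chr16:10788656-10788905: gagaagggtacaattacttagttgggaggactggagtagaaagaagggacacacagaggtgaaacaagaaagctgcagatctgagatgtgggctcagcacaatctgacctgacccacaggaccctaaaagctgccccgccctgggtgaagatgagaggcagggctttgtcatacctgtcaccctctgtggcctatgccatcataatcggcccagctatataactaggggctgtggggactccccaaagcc
The match starts 94 bases before the start in Tnp1 and 64 bases before it in Prm1, and Tnp2 has none in this window. Both strands were searched over 300 bases, from 250 before to 50 after the start, and only TGACGTCA matches both forms at once. The letters occur in 35 of 89 genes of the 3 spermatid lists with a promoter entry, 39.3%, in 4 of 38 meiotic genes, 10.5%, and in 15 of 186 genes of the intestinal lists, 8.06%. Over all genes with a value and an entry they occur in 1412 of 15190, 9.30%. Outside the spermatid lists, the highest shares among lists with at least 10 entries were 27.3% for enteroendocrine cells and for fetal-like regeneration and 22.7% for immediate early genes. The full element TGACGTCA alone occurs in 2.25% of the spermatid genes and in 2.94% of all genes, and TGACTTCA in 4.49% of the spermatid genes and in 1.55% of all genes. Within the spermatid lists they occur in 24 of the 51 genes that were higher at an unadjusted p under 0.05 and in 11 of the other 38. Among the 10 called genes with an entry, Tnp1, Prm1, Smcp and Gsg1 have them. A match is a run of letters, not a bound site, and this form of the motif was chosen after the sequences had been read. Crem itself had a log2 fold change of 0.92 (SE 0.45, unadjusted p = 0.0423) in the authors' deposited table and did not pass the FDR.

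The list for the flagellum and sperm mitochondria held the most called genes by number, with Ccdc136 counted among them. Chromatin packaging had the larger share, 3 of 9. Of 51 flagellum genes with a value, 48 were above 0 and the median was 4.54. Of these 51, 4 rose at an FDR p under 0.05, where 0.0642% of all genes did. A total of 33 were higher at an unadjusted p under 0.05, where 2.59% of all genes were. Smcp, a cysteine-rich protein of the sperm mitochondrial sheath, had the largest log2 fold change of the named genes that passed, 6.95 (SE 1.40, FDR p = 0.00405) in the authors' deposited table, or 124-fold. Ccdc136, a coiled-coil protein of spermatids, had the smallest p-value, with a log2 fold change of 6.45 (SE 1.26, FDR p = 0.00329) by the authors' deposited table, or 87.4-fold. Oaz3, the testis form of ornithine decarboxylase antizyme, and Odf1, a protein of the outer dense fibres that stiffen the tail, rose with log2 fold changes of 4.92 (SE 1.01) and 5.11 (SE 1.18) by the authors' deposited table. Below the FDR threshold, the authors' deposited table gave Ropn1l 2.67 (SE 0.67, FDR p = 0.0861), Spata6 5.04 (SE 1.28, FDR p = 0.104) and Dnajb3 5.18 (SE 1.33, FDR p = 0.119). Akap3 and Akap4, the anchoring proteins of the fibrous sheath, stood at 5.40 (SE 1.49) and 5.91 (SE 1.71) on the same log2 scale. The highest value of any listed gene was that of Cabs1, a calcium-binding protein of elongating spermatids, at 8.97 in the authors' deposited table, but with an SE of 2.61 its FDR p was 0.326.

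Acrosome and round spermatid genes had a median of 3.67 over 45 genes, 43 of them above 0. Gsg1 alone, a germ cell protein of late meiosis and spermatids, passed: its log2 fold change was 5.49 (SE 1.25, FDR p = 0.0264) by the authors' deposited table. Against 2.59% of all genes, a further 20 of the 45 were higher at an unadjusted p under 0.05. Among them the authors' deposited table gave Tssk2, a testis-specific kinase, 4.97 (SE 1.49), Dkkl1, an acrosomal protein, 4.68 (SE 1.47), and Acrbp, which binds proacrosin, 2.40 (SE 0.82). Gkap1, which anchors cGMP-dependent kinase, had a smaller value with a narrow error, 0.95 (SE 0.29, unadjusted p = 0.00123 by the authors' deposited table).

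The lists of earlier germ cell stages had lower medians over all their members. The order of the lists rests on imprecise genes: over members with an SE of at most 1 the median was 0.95 for 5 acrosome genes, 0.38 for 6 flagellum genes, 0.25 for 9 meiotic genes and 0.13 for 4 genes of spermatogonia, and no gene of chromatin packaging was left. Over 52 meiotic genes the median was 1.89, with 39 above 0. Of the 52, 21 were higher at an unadjusted p under 0.05, where 2.59% of all genes were, and none passed the FDR. Hspa2, a chaperone of pachytene spermatocytes with the smallest p-value of the list, had a log2 fold change of 3.00 (SE 0.78, FDR p = 0.12) by the authors' deposited table. The synaptonemal complex genes Sycp1 and Sycp3 stood at 4.57 (SE 1.51) and 3.02 (SE 1.00), the meiotic cohesin Smc1b at 5.79 (SE 1.64) and the chaperone Clgn at 6.30 (SE 1.70) in the same table. Ldhc and Pgk2, the germ cell forms of lactate dehydrogenase and phosphoglycerate kinase, had still higher values of 6.78 and 6.48, with SEs of 2.61 and 2.65. For spermatogonia the median over 15 genes was 0.01 and no gene was higher at an unadjusted p under 0.05. This list carries little information: 6 of its 15 genes sit at a value that 5388 genes share, and 2 of the 15 have a 95% interval within 1 log2 unit of 0. Without the 6 genes at that value its median was 1.89. Both this median and the meiotic median of 1.89 equal another log2 fold change, shared by 998 genes, so neither gives the size of a rise. Kit, a receptor that the intestine also uses, stood at 0.35 (SE 0.41) and Ret at 0.01 (SE 0.43) in the authors' deposited table.

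The lists for the somatic cells of the testis had lower medians too. Of 14 Sertoli cell genes 9 were above 0, with a median of 1.56. Higher at an unadjusted p under 0.05 were 2 of them, 14.3%, against 2.59% of all genes. These were Cldn11, the claudin of the blood-testis barrier, at 6.42 (SE 2.47), and Aard at 3.99 (SE 1.66) in the authors' deposited table. Among the defining Sertoli genes Amh sat at the value that 5388 genes share, and Wt1 stood at 1.78 (SE 1.30). No Leydig cell gene of 8 reached that threshold. Insl3 stood at 0.81 (SE 0.53), Star, which brings cholesterol into mitochondria for steroid synthesis, at 0.01 (SE 0.95) and Cyp17a1, an enzyme of androgen synthesis, at 4.44 (SE 2.50) in the authors' deposited table. Of 21 genes of motile cilia, whose axoneme the sperm tail shares, 16 were above 0, with a median of 1.93. Higher at that threshold were 3 of the 21, also 14.3%: Rsph9, Dynlrb2 and Tekt1. The ciliary regulator Foxj1 stood at 1.81 (SE 1.70). The oocyte list, with 7 genes, and the epididymis list, with 4, both had a median of -0.03, with no gene higher at that threshold. None of 81 genes that mark liver, muscle, nerve, blood, fibroblasts, endothelium, pancreas and stomach, kidney or lung was higher or lower at that threshold, and their median was -0.03, as over all genes. These lists were poorly measured, with a median SE of 2.65: 28 of the 81 genes sit at the shared value, and 7 have a 95% interval within 1 log2 unit of 0, so that for the others a change of over 2-fold lies within the interval. The 11 fibroblast and muscularis genes had a median of 0.82, 7 above 0 and a median SE of 2.52. Whether the germ cell transcripts came from the organoids or from another source was not tested.

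Of the genes with a symbol, 6 passed the FDR without being on a germ cell list. Fabp9, the fatty acid-binding protein of spermatids, had a log2 fold change of 5.49 (SE 1.18, FDR p = 0.00988) in the authors' deposited table, and Dbil5, an endozepine-like peptide of the testis, 4.76 (SE 1.14, FDR p = 0.0469). Akap12, a scaffold for protein kinase A found in many tissues, stood at 5.75 (SE 1.27, FDR p = 0.0149), and Ccdc88a, which binds actin and is also known as girdin, at 4.08 (SE 0.92, FDR p = 0.0252), both by the authors' deposited table. Tspan6, a tetraspanin, stood at 2.87 (SE 0.66, FDR p = 0.0264) by the authors' deposited table. Odf2, a protein of the outer dense fibres that all cells with centrioles also use, had the smallest rise and the smallest error of the 14 in the authors' deposited table, 1.51 (SE 0.31, FDR p = 0.00602), a 2.85-fold rise. Without the germ cell lists and with p-values readjusted over the other 24733 genes, 4 genes passed: Odf2, Fabp9, Akap12 and 1 predicted gene. Ccdc88a then had an adjusted p of 0.0501, Tspan6 of 0.0525 and Dbil5 of 0.0932.

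**Figure D2:**
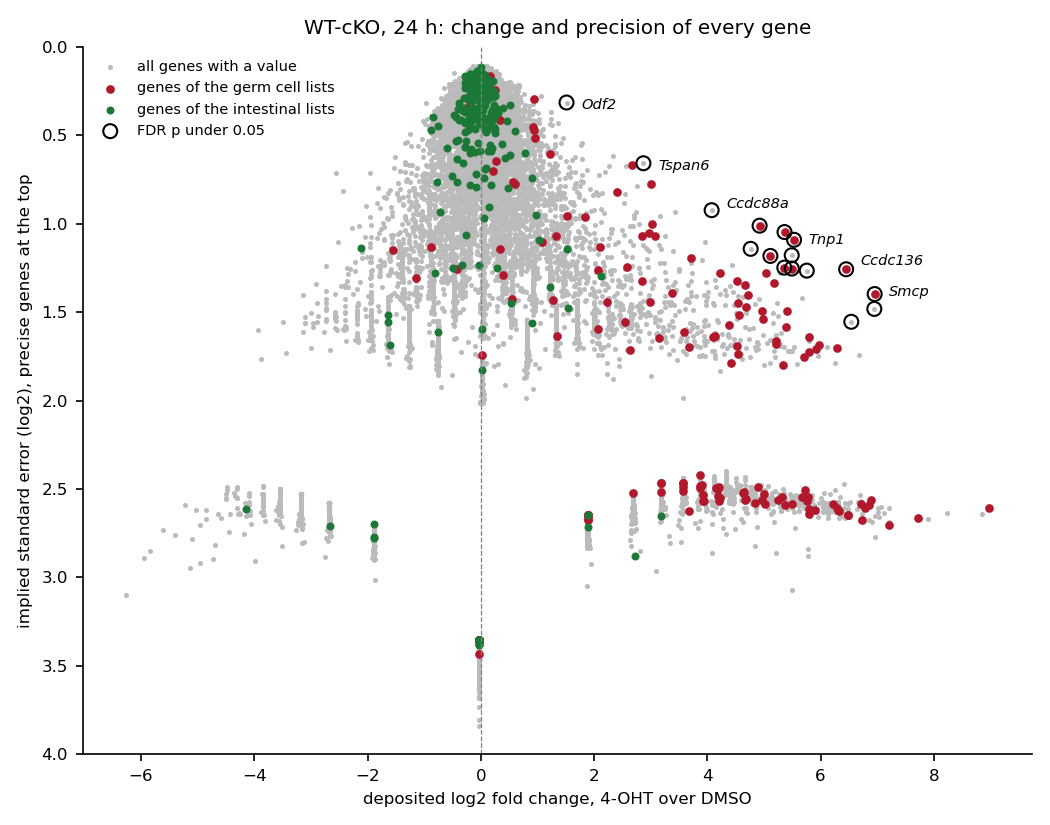
Every gene is placed by its log2 fold change of 4-OHT over DMSO in WT-cKO organoids at 24 h (horizontal) and by its implied SE (vertical, small errors at the top), from the authors' deposited table. Intestinal genes gather at the top around 0, germ cell genes spread to the lower right, and Odf2 is the only called gene with an SE of at most 0.5.

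Precision differed sharply between germ cell and intestinal genes. Of the 172 germ cell genes 13 had an SE of at most 0.5, against 175 of the 247 intestinal genes. Over the 24 germ cell genes with an SE of at most 1, the median log2 fold change was 0.45, 20 were above 0 and 7 were higher at an unadjusted p under 0.05; over the other 148 it was 4.17. The median over the germ cell lists therefore rests on genes with large errors. By the authors' deposited table, 5388 genes share a log2 fold change of -0.03 with an SE above 3, which is 21.6% of all genes, and 998 share 1.89 while 460 share -1.89. The counts behind such genes were not analysed here, and fold changes of genes with few reads depend on the fit that made them. Without the 18 germ cell genes at the first of these values the median of the germ cell lists was 4.02.

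The intestinal epithelium itself showed no gene past the FDR. Of 23 genes of epithelial identity, 22 had an SE of at most 0.5 and 21 had a 95% interval within 1 log2 unit of 0, so that changes of over 2-fold are outside the intervals of these 21. In the authors' deposited table Krt19, an epithelial keratin, stood at -0.17 (SE 0.16), Cdh17, the intestinal cadherin, at -0.15 (SE 0.16), and Vil1, the actin bundler of microvilli, at -0.15 (SE 0.21). Epcam and Cdx2, named for their standing as markers and outside the naming rule, stood at -0.01 (SE 0.12) and 0.02 (SE 0.15) there. The list median was -0.09, with 4 genes above 0. Members of 1 list share a fit and its scaling, so such small shared offsets are not separate observations.

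Lists for single cell types also had medians near 0: 0.08 for stem cells, 0.20 for Paneth cells, -0.01 for goblet cells, 0.04 for enteroendocrine cells and 0.03 for tuft cells, with no gene past an unadjusted p of 0.05. Lgr5, the receptor that marks crypt base stem cells, stood at 0.11 (SE 0.29) in the authors' deposited table, with an interval of -0.46 to 0.68. Lyz1, the lysozyme of Paneth cells, stood at 0.25 (SE 0.28), Muc2, the main mucin of goblet cells, at -0.05 (SE 0.30), and Chga, a granule protein of enteroendocrine cells, at 0.18 (SE 0.46) in that table. Lgr5, Muc2 and Chga are outside the naming rule and were chosen as markers with their values known. Tuft cells were poorly measured: 1 of 13 genes had an SE of at most 0.5, and Dclk1 stood at 3.18 (SE 2.65).

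Genes of enterocyte function leaned below 0 without passing the FDR. The medians were -0.10 for brush border digestion and transport (7 of 28 genes above 0), -0.17 for lipid uptake and chylomicrons (5 of 22) and -0.19 for xenobiotic enzymes (2 of 28). The 1 intestinal gene lower at an unadjusted p under 0.05 was Adh6a, an alcohol dehydrogenase, at -0.85 (SE 0.40, unadjusted p = 0.0321) in the authors' deposited table. Gstm1, a glutathione transferase, stood at -0.28 (SE 0.23), Cyp2c55, a cytochrome P450, at -0.21 (SE 0.17), and Dgat1, which makes triglyceride, at -0.29 (SE 0.21) there. In WT-cKO organoids 1 of the 28 xenobiotic genes was lower at an unadjusted p under 0.05 at 24 h and 14 were at 48 h, where 1.08% of all genes were lower and the list median was -0.47; over the list, this difference was not tested. In CDK2-cKO organoids the list median was -0.19 at 24 h and -0.46 at 48 h. At 48 h 11 of the 28 genes were lower there at an unadjusted p under 0.05, where 327 of 24905 genes were. Of these 11, 1 passed the FDR. In WT-cKO DMSO organoids at 48 h over 24 h, which share the DMSO libraries, the list median was 0.17, with 20 of 28 genes above 0.

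**Figure D3:**
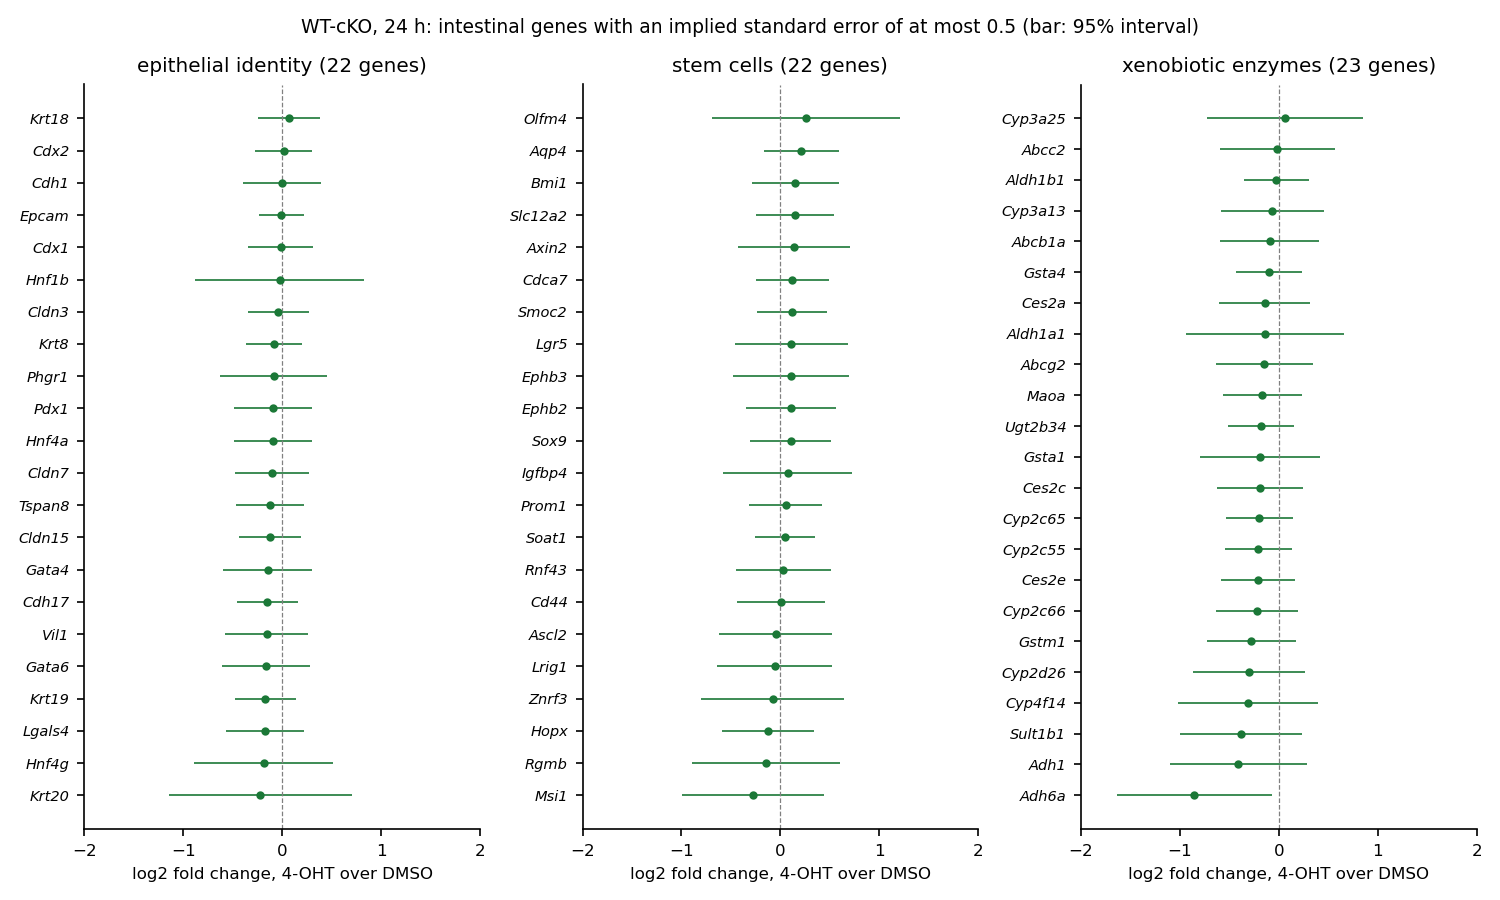
Points are log2 fold changes of 4-OHT over DMSO in WT-cKO organoids at 24 h from the authors' deposited table, bars are 95% intervals from the implied SE, for genes of 3 intestinal lists with an SE of at most 0.5. All intervals include 0 except that of Adh6a, and most xenobiotic enzymes lie to the left of 0.

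Lists for known actions of tamoxifen and for stress were near 0. Estrogen-responsive genes had a median of -0.03 over 21 genes and sterol synthesis genes of -0.10 over 25, with none past an unadjusted p of 0.05; tamoxifen and its metabolites are known to act on both. The estrogen-responsive list was imprecise, with a median SE of 1.12, values from -1.89 to 2.77 and 8 of 21 intervals within 1 log2 unit of 0. Greb1, a classic estrogen target that falls outside the naming rule, stood at -0.14 (SE 0.33), and Fdps, an enzyme of the mevalonate pathway, at -0.23 (SE 0.14) in the authors' deposited table. Esr1, the estrogen receptor, stood at 1.89 (SE 2.72), which is too imprecise to read. The p53 targets had a median of 0.03 over 31 genes, and the unfolded protein, heat shock, interferon and immediate early lists had medians between -0.03 and 0.03. The interferon list was imprecise too, with a median SE of 0.90 and 8 of 27 intervals within 1 log2 unit of 0.

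Cell-cycle genes were well measured and close to 0. Cdk2, the gene named in the CDK2-cKO label, stood at 0.26 (SE 0.21, unadjusted p = 0.216) in the authors' deposited table. Its interval ran from -0.15 to 0.66. The list of E2F and G1/S genes had a median of 0.02 over 39 genes, all with an SE of at most 0.5. In it 2 of the 39 genes were lower at an unadjusted p under 0.05, where 0.389% of all genes were. These were E2f2, a transcription factor of S phase entry, at -0.45 (SE 0.19), and Chaf1b, a chromatin assembly factor, at -0.53 (SE 0.27). The G2/M and mitosis list had a median of 0.02 over 34 genes, with none at that threshold. The cytosolic ribosomal protein genes had a median of -0.02 over 46 genes.

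Over all genes, members of the lists included, 9557 had an SE of at most 0.5, and of these 84 were higher and 53 were lower at an unadjusted p under 0.05. Apart from Odf2 none of them passed the FDR. Among the higher ones, the authors' deposited table gave Spata7, a protein of the connecting cilium of photoreceptors, 1.36 (SE 0.43), Dnaaf1, which assembles the dynein arms of motile cilia, 1.25 (SE 0.44), Cfap36, a protein of cilia and flagella, 1.23 (SE 0.37), Tmem17, of the ciliary transition zone, 1.09 (SE 0.47), and Cep295, a centriole protein, 1.05 (SE 0.28). The other 9 of the 15 highest outside the germ cell lists were Srl, Mettl3, Taf4, Mylk3, Fhad1, Lyrm7, Unc119, Lrrc57 and Ikbke, between 0.97 and 1.24. Among the lower ones, the same table gave Zfp316 -1.24 (SE 0.49), Erich4 -0.98 (SE 0.44), Slc35a5, a sugar transporter family member, -0.96 (SE 0.31), and Trpm2, a cation channel, -0.95 (SE 0.41). Ctnnb1, beta-catenin, the effector of Wnt signalling, stood at -0.77 (SE 0.38). The remaining 10 of the 15 lowest were Arfgap2, Leng9, Wsb2, Senp3, Trmu, Adh6a, Ostm1, Shroom2, Inpp5j and Ppm1h, between -0.92 and -0.78.

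The same drug was given to CDK2-cKO organoids for 24 h, with DMSO organoids of their own. Tnp1 had a log2 fold change of 5.53 (SE 1.09) in WT-cKO organoids and of 0.98 (SE 1.08) in CDK2-cKO organoids by the authors' deposited table. For Prm1 these values were 5.36 (SE 1.05) in WT-cKO and 1.06 (SE 1.04) in CDK2-cKO organoids, and for Smcp 6.95 (SE 1.40) in WT-cKO and 1.32 (SE 1.19) in CDK2-cKO organoids. The 14 genes ran from 1.51 to 6.95 in WT-cKO organoids and from 0.45 to 1.59 in CDK2-cKO organoids, all above 0 in both, and none passed the FDR in CDK2-cKO organoids. In the spermatid lists 99 of 105 genes were above 0 with a median of 4.51 in WT-cKO organoids, and 83 of 105 with a median of 0.98 in CDK2-cKO organoids. In CDK2-cKO organoids none of the 105 was higher at an unadjusted p under 0.05, where 0.727% of all genes were. The difference of the responses, WT-cKO minus CDK2-cKO, was 4.55 (SE 1.53) for Tnp1, 5.64 (SE 1.83) for Smcp and 0.93 (SE 0.45) for Odf2. After Benjamini-Hochberg adjustment of a two-sided normal test, no gene of 24905 passed for this difference, and the smallest adjusted p was 0.995. At an unadjusted p under 0.05 there were 443 genes, 1.78% of all, where uniform p-values would give 1245. Of the 443 genes, 296 had the higher value in WT-cKO organoids. The intervals of the difference lay above 0 for all 14 genes, but these had been picked for high values in WT-cKO organoids.

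WT-cKO organoids were also compared at 48 h, with 3 other 4-OHT and 3 other DMSO libraries. Tnp1 stood at 5.53 (SE 1.09) at 24 h and at 1.15 (SE 1.08) at 48 h by the authors' deposited table, and Odf2 at 1.51 (SE 0.31) at 24 h and at 0.37 (SE 0.32) at 48 h. At 48 h the 14 genes ran from 0.10 to 2.03 and none passed the FDR. The spermatid lists then had a median of 0.68 with 67 of 105 genes above 0, and 1 gene was higher at an unadjusted p under 0.05, where 0.747% of all genes were. For the difference of 24 h minus 48 h no gene of 24905 passed the adjustment. An unadjusted p under 0.05 was found for 438 genes, 1.76%, where uniform p-values would give 1245. Tnp1 differed by 4.38 (SE 1.54) and Odf2 by 1.15 (SE 0.45), but both had been picked for high values at 24 h. In CDK2-cKO organoids at 48 h, 13 of the 14 genes were below 0, and the 14 ran from -0.95 to 0.04. The 105 spermatid genes had a median of -0.50 there, and none of them was higher at an unadjusted p under 0.05, where 0.895% of all genes were.

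**Figure D4:**
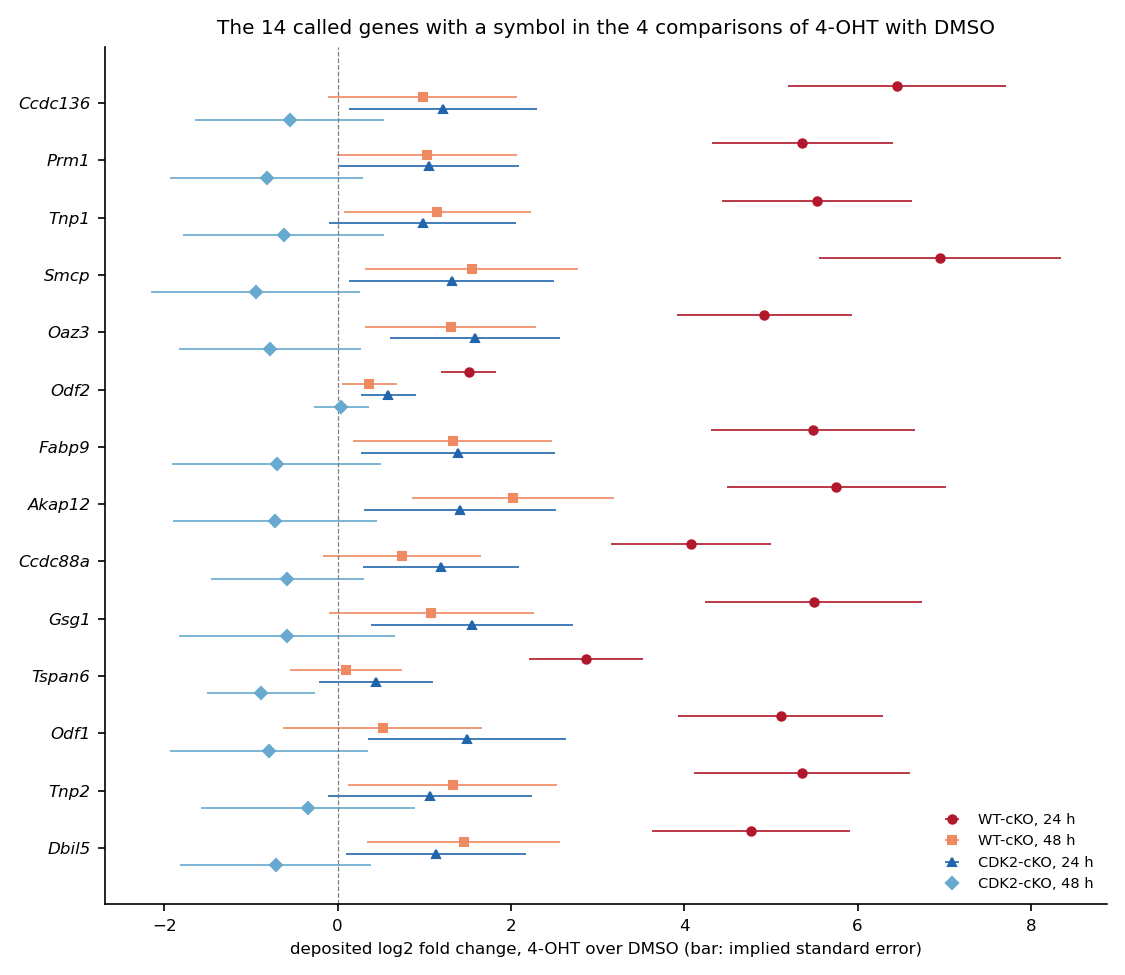
Points are log2 fold changes of 4-OHT over DMSO from the authors' deposited table and bars are 1 implied SE, for the 14 called genes with a symbol in WT-cKO and CDK2-cKO organoids at 24 h and 48 h. WT-cKO organoids at 24 h stand to the right at 1.51 to 6.95, and CDK2-cKO organoids at 48 h lie at or below 0.04.

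**Figure D5:**
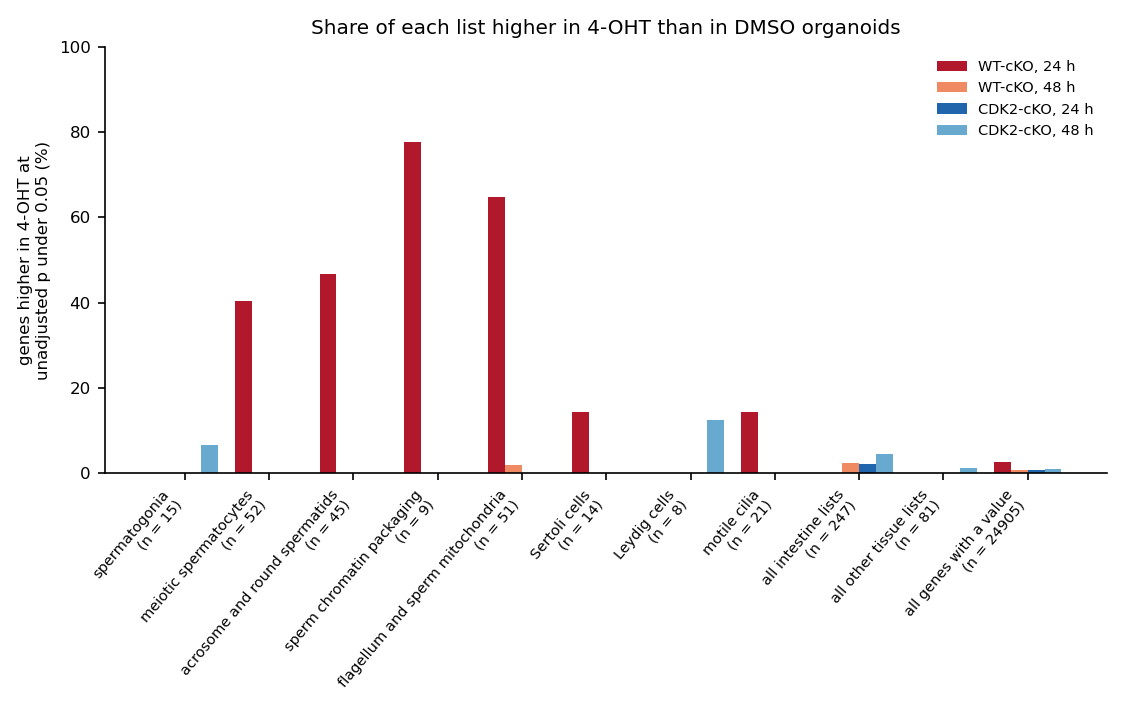
Bars give the percentage of each list's genes, with its number of genes with a value, that were higher in 4-OHT than in DMSO organoids at an unadjusted p under 0.05 in the authors' deposited table; no bar means 0%. In WT-cKO organoids at 24 h the share is 0% for spermatogonia, 40.4% for meiotic genes, 46.7% for the acrosome, 77.8% for chromatin packaging and 64.7% for the flagellum, against 2.59% of all genes.

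The DMSO libraries of 24 h also serve in a comparison of DMSO at 48 h over DMSO at 24 h, so the values below share samples with those above and are given side by side only. In that comparison of the authors' deposited table Tnp1 stood at 1.52 (SE 1.10), Prm1 at 1.33 (SE 1.05) and Smcp at 2.14 (SE 1.45), while Odf2 stood at -0.04 (SE 0.32). The 14 genes ran from -0.04 to 2.92, and none passed the FDR. The spermatid lists had a median of 0.26, with 62 of 105 genes above 0.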

How the data were processed

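Libraries were made from 50 ng RNA with a Lexogen 3′ kit, per the labels' protocols. Salmon, without version, appears in the submitters' processing notes. For genome build, annotation, normalization and test, the entry is: not given in the sources used here. What the authors deposited is 1 table, covering 13 comparisons. For each gene, per the file headers, it has log2 and linear fold changes (the linear one a ratio), the p-value, and p-values after FDR and Bonferroni correction; a missing value is text, hence the general unit recorded for its columns. Benjamini-Hochberg adjustment over the genes with a value returned the deposited FDR values.

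Dividing the absolute log2 fold change by the normal quantile of the p-value (both tails) gave the SE, on the assumption of a Wald-type test. Intervals are 95% normal intervals. For differences between comparisons SEs were combined as independent, with a normal p in both tails and Benjamini-Hochberg adjustment. This step was tested on simulated data, with true changes only in genes whose difference had an SE of at most 0.5. Its power for less precise genes, which most called genes are, was not tested. Genes were called at an FDR p under 0.05. Members and the 42 gene lists were chosen with earlier results of these data known, so no count over a list is a test. Named were all called genes with a symbol, the 15 largest rises and falls with an unadjusted p under 0.05 and an SE of at most 0.5 outside the germ cell lists, up to 6 genes per list by smallest p, any germ, Sertoli or Leydig cell gene, and Cdk2. Positions were matched by symbol to GENCODE M21 for 95.9% of genes. Calculations used Python 3.11.15, numpy 2.4.6, pandas 2.3.3 and scipy 1.17.1. Values per sample and depth were not analysed here.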

Additional observations from a re-analysis of the deposited data

How the results depend on the processing

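No paired analysis was possible because the table holds comparisons and no values per sample, and for the same reason no replicate was left out. The 16 calls became 6 at a Bonferroni p under 0.05, 1 (Odf2) among genes with an SE of at most 0.5, and 4 without the germ cell lists, all of them among the 16; an FDR p under 0.1 gave 19, the 16 included. The germ cell median of 3.67 became 0.45 over members with an SE of at most 1, because most members have larger errors, 3.69 after centring on well measured genes and 4.02 without members at the shared value, an alternative chosen after seeing the data. Limited to genes whose difference had an SE of at most 1, the normal test with Benjamini-Hochberg adjustment again called 0 genes for WT-cKO minus CDK2-cKO (196 of 10759 at an unadjusted p under 0.05) and 0 for 24 h minus 48 h (201 of 10742). Large SEs of germ cell genes limit what their fold changes say. The SE rests on an assumed test, and the libraries' depth is unknown.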

Other observations

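Gene families can also be read by name, and their counts include genes that are on the lists above. In the authors' deposited table, 4 of 5 Tekt genes (tektins of the axoneme), 5 of 8 Odf genes, 4 of 6 Iqc genes, 11 of 30 Spata genes (named for spermatogenesis), 7 of 24 Cfap genes and 22 of 136 Ccdc genes were higher in 4-OHT than in DMSO WT-cKO organoids at an unadjusted p under 0.05. In other families of sperm and cilia these were 2 of 11 Spag genes, 2 of 15 Ift genes (transport along cilia), 4 of 36 Tex genes and 1 of 16 Dnah genes (dynein heavy chains of the axoneme), with 8 of the 16 Dnah genes above 0. Of 350 Slc genes 8 were, of 382 Zfp genes 6, and of 38 Krt genes none was. Members of the germ cell lists were not removed from these families, so part of these counts repeats those given above. Of 606 genes known only by RIKEN clones with the library codes of adult testis, 53 were higher at that threshold, 8.75%, while 17 of 1047 with other codes were, 1.62%. Most of the 53 carry 1 of these codes, for which the share was 14.7% (37 of 251), while for 2 other codes it was 4.93% (11 of 223) and 2.67% (2 of 75), against 2.59% of all genes. These groupings were chosen after the table was seen, and no test was run.

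The 644 higher genes were spread over the genome. Of those on each autosome with a value, 2.01% to 3.33% were higher, and on chromosome X 14 of 737 genes were, 1.90%. Xist and the Y-linked genes Ddx3y, Eif2s3y, Kdm5d and Uty stood at -0.03 (SE 0.30), -0.27 (SE 0.26), -0.34 (SE 0.25), -0.32 (SE 0.32) and 0.45 (SE 0.32) in the authors' deposited table for 4-OHT over DMSO.

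Among genes with an SE above 2 and away from the shared value near 0, 2572 had a log2 fold change above 1.5 and 1257 below -1.5 in WT-cKO organoids at 24 h. In WT-cKO organoids at 48 h these numbers were 2056 and 1291. In CDK2-cKO organoids they were 2014 and 1366 at 24 h, and 1707 and 1647 at 48 h. In the comparison of DMSO at 48 h over 24 h they were 1598 and 1558. The cause was not tested.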
